A study of Mus musculus with 32 samples.

Results

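The transcripts described here encode the enzymes that make cholesterol and the proteins that sense sterols and control those enzymes. They were chosen by name. A list of 26 genes was matched to the array, and 25 had a probe set that carries a single gene symbol, out of 19938 genes with such a probe set. Acat2 had none and is not analysed here. Idi1 and Fdft1 have 2 such probe sets, and the probe set with the higher mean over the 32 arrays was used. Their RNA was quantified in whole testis (input) and in the fraction recovered with anti-HA antibody from tagged ribosomes (IP), on Affymetrix Mouse Gene 1.0 ST arrays.

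RiboTag mice express an HA-tagged ribosomal protein only after Cre recombination. In AMH-Cre: RiboTag mice the promoter of anti-Müllerian hormone drives Cre in Sertoli cells, which nurse the germ cells inside the seminiferous tubules. In Cyp17iCre: RiboTag mice the Cyp17 promoter drives Cre in Leydig cells, the androgen-making cells between the tubules. The AMH-Cre: RiboTag arrays were 5 inputs and 5 IPs of saline-treated mice and, as IPs only, 2 each after acyline, acyline with FSH for 1 h, acyline with FSH for 4 h, cetrorelix, and cetrorelix with testosterone for 4 h, with the antagonist given for 3 days. The Cyp17iCre: RiboTag arrays were 3 inputs and 3 IPs of saline-treated mice and 2 IPs each after acyline for 4 days, acyline followed by LH for 1 h, and acyline followed by LH for 4 h. Acyline and cetrorelix block the gonadotropin-releasing hormone receptor, and the hormone was given on top of the antagonist, so each hormone group was compared with its antagonist group. All mice carried the RiboTag allele and a Cre, and the study describes the AMH-Cre: RiboTag mice as adult. The study saw the tag in scattered tubule cells of the Cyp17iCre: RiboTag mice as well.

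Marker genes fitted the labels of the IPs. All 5 Leydig cell markers (Cyp11a1, Cyp17a1, Hsd17b3, Hsd3b1 and Star) were higher in the Leydig IPs than in their inputs, by 1.73 to 3.33 on the log2 scale, and all 5 were lower in the Sertoli IPs than in theirs. All 5 Sertoli cell markers (Dhh, Fshr, Sox9, Trf and Wt1) were higher in the Sertoli IPs than in their inputs. In the Leydig IPs the Sertoli markers lay between -0.10 and 1.53 relative to input, so they were not depleted. Markers of spermatids fell below input in both sets of IPs, with 5 of 6 lower in the Leydig line and 3 of 6 in the Sertoli line. Of 6 markers of spermatogonia and spermatocytes, 5 were lower and 1 was higher, by 3.21, in the Leydig IPs. In the Sertoli IPs all 6 were lower. An IP level is a share of the tagged RNA, and in an input fewer cells of a type and less RNA per cell cannot be told apart.

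Cholesterol is built from acetyl-CoA. The mevalonate enzymes make isoprenoid units, squalene is formed and folded into lanosterol, and a series of tailoring enzymes trims lanosterol to cholesterol. SREBP transcription factors, the products of Srebf1 and Srebf2, are escorted by Scap to the Golgi and released there when membrane sterol is low, and the Insig proteins hold them back when sterol is plentiful. Leydig cells use cholesterol as the starting material of testosterone.

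Promoter sequence of 21 of the 25 genes was read from the RefSeq annotation of mouse build GRCm38.p6, in windows from 250 bases before to 50 bases after each annotated start. The genes with no entry were Stard4, Sqle, Fdft1 and Fdps. The letters CCAAT, the motif of the factor NF-Y, were found on either strand in 20 of the 21 genes, against 41.1% of the 27025 genes with a window. The letters GGGCGG, the motif of Sp1, were in 19 of 21 genes, against 38.2%. Some genes have several windows, and a gene was counted if any of them matched. By window, CCAAT was in 21 of the 29 windows of these genes, against 37.4% of all 32851 windows. By the same count GGGCGG was in 23 of the 29, against 35.7%. The strict sterol regulatory element TCACNCCAC was in 1 of 21, Hmgcs1, against 1.44% of all genes. The cyclic AMP response element TGACGTCA was in none of the 21, against 2.03%, and the steroidogenic factor 1 motif CAAGGTCA was in 1, Dhcr7, against 1.76%. Such matches describe letters only and do not show that a factor binds. NF-Y is known to work beside SREBP at sterol-regulated promoters.

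The 250 bases before the start are printed 5′ to 3′ for 5 genes, chosen because they show the sterol element, the densest and the sparsest CCAAT content, and both a sensor and an enzyme whose levels vary below. Capitals mark CCAAT (read as ATTGG on the other strand) and, in Hmgcs1 only, the sterol element. The positions are chr13:119690101-119690350, plus strand for Hmgcs1, chr5:114444019-114444268, plus strand for Mvk, chr5:28071162-28071411, plus strand for Insig1, chr1:169969206-169969455, minus strand for Hsd17b7, and chr9:110333038-110333287, plus strand for Scap.
Hmgcs1: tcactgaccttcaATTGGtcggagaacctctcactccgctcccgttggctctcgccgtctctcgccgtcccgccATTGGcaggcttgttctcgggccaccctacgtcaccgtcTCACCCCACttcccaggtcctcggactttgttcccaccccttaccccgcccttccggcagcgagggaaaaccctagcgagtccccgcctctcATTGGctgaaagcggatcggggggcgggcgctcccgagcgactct
Mvk: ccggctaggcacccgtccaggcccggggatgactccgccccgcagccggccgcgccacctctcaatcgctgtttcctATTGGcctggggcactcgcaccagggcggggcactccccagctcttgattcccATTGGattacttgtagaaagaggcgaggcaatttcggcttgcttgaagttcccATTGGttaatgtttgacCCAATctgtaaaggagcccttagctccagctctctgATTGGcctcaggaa
Insig1: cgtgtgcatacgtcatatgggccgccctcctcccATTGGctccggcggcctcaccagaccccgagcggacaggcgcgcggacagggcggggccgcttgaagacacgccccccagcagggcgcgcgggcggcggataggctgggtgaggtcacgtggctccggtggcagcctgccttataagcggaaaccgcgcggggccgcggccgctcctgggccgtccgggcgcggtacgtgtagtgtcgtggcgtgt
Hsd17b7: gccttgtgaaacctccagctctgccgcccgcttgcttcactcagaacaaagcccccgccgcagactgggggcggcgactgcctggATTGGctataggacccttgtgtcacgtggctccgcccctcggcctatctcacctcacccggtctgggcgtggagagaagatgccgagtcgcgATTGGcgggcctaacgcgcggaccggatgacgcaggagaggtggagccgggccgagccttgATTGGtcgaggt
Scap: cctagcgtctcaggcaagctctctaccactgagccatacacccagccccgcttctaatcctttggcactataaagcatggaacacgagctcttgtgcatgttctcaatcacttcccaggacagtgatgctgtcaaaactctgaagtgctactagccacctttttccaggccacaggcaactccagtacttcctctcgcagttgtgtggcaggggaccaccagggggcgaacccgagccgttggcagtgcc
Within these bases Mvk held 5 CCAAT matches, Hmgcs1 3 beside its sterol element, Hsd17b7 3 and Insig1 1. Scap, the escort protein and not an enzyme of the pathway, was the gene of the 21 with no CCAAT match in either of its windows.

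**Figure D1:**
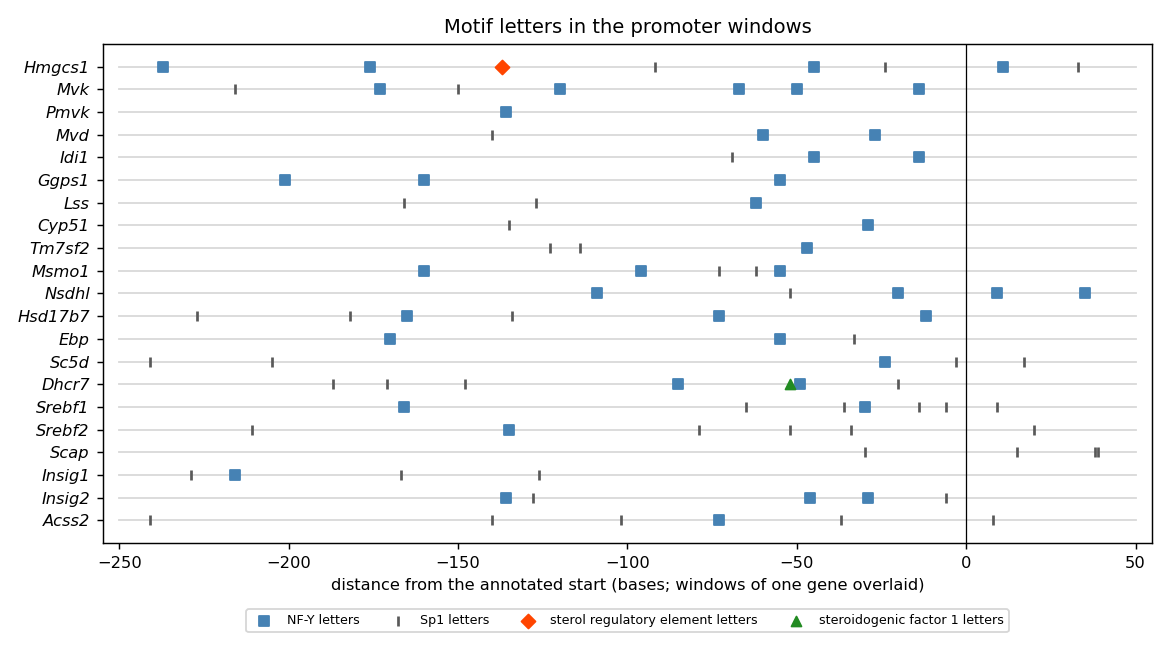
Positions of the motif letters in the promoter windows of 21 genes, in bases from the annotated start (0), with the windows of a gene overlaid; squares are CCAAT, bars GGGCGG, the diamond the sterol element and the triangle the steroidogenic factor 1 letters. CCAAT matches appear in 20 of the 21 rows, and Scap has none.

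Enrichment on Leydig ribosomes was asked first, by comparing the 3 saline IPs with the 3 inputs of the same line. Of the 25 transcripts, 19 were enriched at 2-fold or more with an adjusted p under 0.05, where 11.0% of all tested probe sets were called higher, and 0 were depleted, where 10.7% were called lower. The median over the 25 was 1.88 on the log2 scale, a 3.69-fold enrichment, against -0.03 over all tested probe sets. All 8 tailoring enzymes were enriched, 5 of the 7 mevalonate-branch enzymes, 1 of the 3 enzymes from squalene synthesis to lanosterol, and 4 of the 5 control genes. Values below are log2 levels as the authors normalized them, given for the 3 inputs and then the 3 IPs in the order of their replicate numbers, and each difference carries its standard error. Levels of different genes come from different probes and are not compared with each other.

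The largest enrichments were among the tailoring enzymes. Tm7sf2, a sterol C14 reductase, read 7.28, 7.18 and 7.13 in the inputs and 10.72, 10.16 and 10.55 in the IPs, a difference of 3.28 ± 0.14, or 9.69-fold. Hsd17b7, the sterol 3-ketoreductase, read 7.37, 7.29 and 7.64 and then 10.56, 9.82 and 10.83, a difference of 2.97 ± 0.24. In both genes the lowest IP lay more than 2 log2 units above the highest input. Sc5d, the C5 desaturase, went from 8.88, 8.46 and 8.81 to 11.66, 11.28 and 11.81, or 2.87 ± 0.16. Dhcr7, which makes cholesterol from its last precursor in one route, went from 7.89, 7.47 and 7.93 to 10.80, 10.21 and 10.81, or 2.84 ± 0.19. Nsdhl, the decarboxylating sterol dehydrogenase, went from 8.26, 8.13 and 8.31 to 11.20, 10.76 and 11.25, or 2.84 ± 0.14. These 3 enzymes act at different steps and moved by nearly the same amount. Msmo1, the C4 methyl oxidase, read 10.11, 9.72 and 10.15 and then 12.89, 12.51 and 12.98, a difference of 2.80 ± 0.16. Ebp, the sterol isomerase, read 8.13, 7.98 and 8.22 and then 10.43, 10.29 and 10.35, a difference of 2.25 ± 0.09. Cyp51, the lanosterol demethylase, had the smallest enrichment of the 8, from 9.03, 9.17 and 9.17 to 10.99, 10.56 and 11.14, or 1.78 ± 0.15. Inputs and IPs did not overlap for any of the 8, a separation not counted over all probe sets. The 8 were already called, so it adds no support. Their adjusted p lay between 4.94e-07 and 1.85e-05.

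The enzymes of the mevalonate branch lay between 0.82 and 1.92. Hmgcs1, the HMG-CoA synthase, read 9.87, 9.85 and 9.85 in the inputs and 11.66, 11.56 and 12.11 in the IPs, a difference of 1.92 ± 0.14. Fdps, the farnesyl diphosphate synthase, read 9.62, 9.71 and 9.73 and then 11.27, 10.86 and 11.14, or 1.40 ± 0.11. Mvd, the mevalonate diphosphate decarboxylase, read 7.07, 7.11 and 7.13 and then 8.50, 8.14 and 8.81, or 1.38 ± 0.15. The IPs of these 3 genes lay above every input, which was not counted over all probe sets. The 3 were already called, so it adds no support. The kinases Pmvk and Mvk followed. Pmvk went from 7.21, 7.22 and 7.35 to 8.72, 8.09 and 8.56, or 1.20 ± 0.15. Mvk went from 7.65, 7.60 and 7.69 to 8.91, 8.29 and 8.90, or 1.05 ± 0.16, and without IP replicate 1 or IP replicate 3 its difference of 0.95 was under 2-fold. In both kinases IP replicate 2 was the lowest of the 3. Idi1, the isopentenyl isomerase, at 0.82 ± 0.12, and Ggps1, which feeds protein prenylation and not sterols, at 0.86 ± 0.07, had adjusted p of 4.09e-04 and 2.00e-05 but stayed under 2-fold.

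Lss, the cyclase that forms lanosterol, was strongly enriched, with 7.93, 7.78 and 7.92 in the inputs and 10.81, 9.72 and 10.75 in the IPs, a difference of 2.55 ± 0.27 and the widest error of the 25. The enzymes before it did not reach 2-fold. Sqle, the squalene epoxidase, was higher in the IPs by 0.79 ± 0.11 with an adjusted p under 0.05. Its IPs, from 10.69 to 11.12, lay above its inputs, from 10.07 to 10.17. Fdft1, the squalene synthase, differed by -0.23 ± 0.08. Fdft1 read 11.92, 11.98 and 12.02 in the inputs and 11.66, 11.68 and 11.87 in the IPs, which were slightly lower (adjusted p = 0.0422). Its second probe set, at -0.21, had an adjusted p of 0.0766.

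Among the control genes the pair of Insig proteins parted. Insig1 read 8.79, 8.87 and 9.05 in the inputs and 10.96, 10.66 and 11.25 in the IPs, a difference of 2.06 ± 0.15. Insig2 read 10.02, 10.03 and 10.23 and then 9.46, 9.38 and 9.71, a difference of -0.58 ± 0.11, with every IP below every input. Its adjusted p was 0.00216 at a change under 2-fold. Scap went from 8.45, 8.31 and 8.38 to 10.62, 10.79 and 10.53, or 2.27 ± 0.09. Srebf1 went from 7.53, 7.18 and 7.27 to 9.54, 9.56 and 9.38, or 2.17 ± 0.11. Srebf2 went from 8.18, 8.19 and 8.18 to 9.99, 10.07 and 10.07, or 1.86 ± 0.07. Of the other SREBP targets on the list, Stard4, a cytosolic sterol carrier, read 7.01, 6.96 and 7.15 and then 8.95, 8.67 and 9.14, or 1.88 ± 0.13. Acss2, the cytosolic acetyl-CoA synthetase, differed by 0.10 ± 0.13, and its inputs and IPs overlapped.

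**Figure D2:**
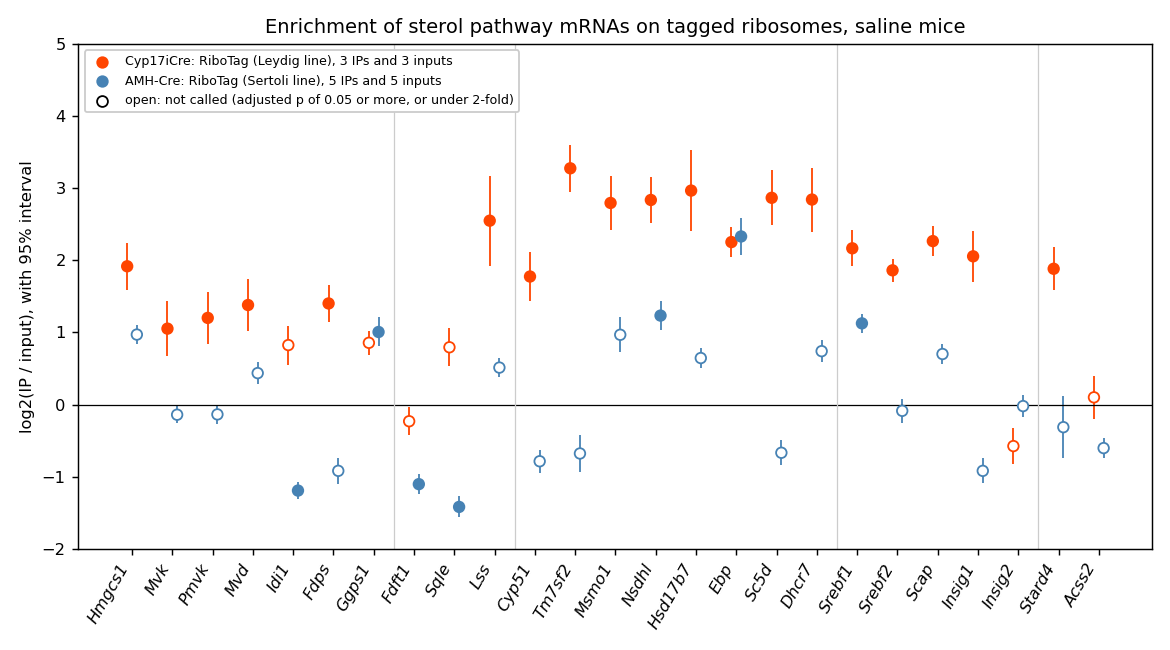
Enrichment (log2 of IP over input, vertical axis) of the 25 transcripts, ordered by step, in the Leydig line (3 IPs, 3 inputs) and the Sertoli line (5 IPs, 5 inputs); bars are 95% intervals and open points were not called. The Leydig points lie above the Sertoli points for all genes but Ebp, Ggps1 and Insig2.

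On Sertoli ribosomes fewer of the transcripts were called. Of the 25 transcripts, 4 were enriched at 2-fold (Ebp, Nsdhl, Srebf1 and Ggps1), where 12.4% of tested probe sets were called higher, and 3 were depleted (Sqle, Idi1 and Fdft1), where 11.7% were called lower, so both counts lay near the share over all probe sets. Ebp, Nsdhl and Srebf1 were also called in the Leydig line. The median over the 25 was -0.09, and over all tested probe sets -0.03. The 5 inputs and 5 IPs were close enough that a further 14 transcripts had an adjusted p under 0.05 at less than 2-fold.

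Ebp was the most enriched. It read 8.16, 7.76, 7.97, 8.46 and 8.35 in the 5 inputs and 10.52, 10.49, 10.39, 10.48 and 10.48 in the 5 IPs, a difference of 2.33 ± 0.12, or 5.03-fold. No IP came near an input. Nsdhl read 8.29, 7.99, 8.10, 8.38 and 8.26 and then 9.46, 9.57, 9.51, 9.20 and 9.44, a difference of 1.23 ± 0.09. Srebf1 read 7.47, 7.39, 7.36, 7.38 and 7.60 and then 8.57, 8.55, 8.60, 8.51 and 8.59, a difference of 1.13 ± 0.06. Ggps1 read 7.52, 7.48, 7.38, 7.68 and 7.85 and then 8.52, 8.56, 8.47, 8.73 and 8.66, a difference of 1.01 ± 0.09. The Ggps1 change sat on the 2-fold limit: it was 0.92 after quantile normalization and between 0.95 and 0.99 without input replicate 1, 2 or 3 or without IP replicate 4 or 5. Hmgcs1 at 0.97 ± 0.06 and Msmo1 at 0.97 ± 0.11 lay just under the limit, with adjusted p of 2.92e-08 and 6.31e-06.

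The depleted transcripts were the squalene epoxidase, the isopentenyl isomerase and the squalene synthase. Sqle read 10.10, 10.15, 10.12, 10.07 and 10.21 in the inputs and 8.56, 8.85, 8.63, 8.81 and 8.72 in the IPs, a difference of -1.42 ± 0.07. Idi1 read 10.06, 10.03, 10.04, 10.09 and 10.16 and then 8.80, 8.96, 8.96, 8.83 and 8.85, a difference of -1.19 ± 0.06. Fdft1 read 11.90, 11.93, 11.91, 11.94 and 12.03 and then 10.68, 10.89, 10.78, 10.89 and 10.95, a difference of -1.10 ± 0.06. None of the 3 overlapped between inputs and IPs, a separation not counted over all probe sets. The 3 were already called, so it adds no support. The second probe sets gave -1.27 for Idi1 and -1.33 for Fdft1. Fdps, which works between Idi1 and Fdft1, was at -0.92 ± 0.08, under 2-fold with an adjusted p of 6.47e-07. Insig1 was at -0.92 ± 0.08, Cyp51 at -0.79 ± 0.07, Tm7sf2 at -0.68 ± 0.12, Sc5d at -0.67 ± 0.08 and Acss2 at -0.60 ± 0.06, all with adjusted p under 0.05. On the higher side and under 2-fold were Dhcr7 at 0.74 ± 0.07, Scap at 0.70 ± 0.06, Hsd17b7 at 0.64 ± 0.06, Lss at 0.51 ± 0.06 and Mvd at 0.44 ± 0.07. Mvk at -0.14 ± 0.06, Pmvk at -0.14 ± 0.06, Srebf2 at -0.09 ± 0.08, Insig2 at -0.02 ± 0.07 and Stard4 at -0.31 ± 0.20 stayed close to input in size. The 14 transcripts with an adjusted p under 0.05 at less than 2-fold include a kinase of this group, Mvk or Pmvk. The 95% intervals of Srebf2 and Insig2 ran from -0.26 to 0.08 and from -0.17 to 0.13, and that of Stard4 from -0.75 to 0.12.

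Whether enrichment itself differed between the lines was tested as the difference of the differences. It was at least 2-fold larger in Leydig cells for 18 of the 25 transcripts, where 5.48% of probe sets were called higher, and at least 2-fold smaller for 0, where 5.98% were called lower. The median difference was 1.83, and over all probe sets -0.03. The largest belonged to Tm7sf2, Sc5d, Insig1 and Cyp51, which were all below input in the Sertoli line and above it in the Leydig line. Hmgcs1, Mvd, Fdft1 and Acss2 also had larger enrichment in the Leydig line, by 0.95 ± 0.14, 0.94 ± 0.16, 0.87 ± 0.10 and 0.70 ± 0.13, each under 2-fold with adjusted p under 0.05. The second probe set of Fdft1 passed 2-fold, at 1.12. Insig2 went the other way, by -0.55 ± 0.12, with an adjusted p of 0.00194 and under 2-fold. Ebp and Ggps1 did not pass the test, and their 95% intervals were -0.44 to 0.29 and -0.43 to 0.13. Inputs of the lines were close for these genes, within 0.25 of each other for 23 of the 25. The share within 0.25 was not counted over all probe sets, where the gaps had a standard deviation of 0.25. The widest input gap was -0.44 for Acss2, lower in the Leydig line. Stard4 was also outside 0.25, with mean input levels of 7.04 in the Leydig line and 7.44 in the Sertoli line. That gap enters its difference of enrichments. Line and cell type cannot be told apart, because each cell type was tagged in its own line.

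The saline IPs were also set against each other directly. In this comparison 21 transcripts were at least 1.5-fold higher in the Leydig IPs, where 12.4% of probe sets were called higher, and 0 were lower, where 13.3% were. Tm7sf2 read 6.77, 6.65, 6.70, 6.79 and 6.77 in the Sertoli IPs against 10.72, 10.16 and 10.55 in the Leydig IPs, a difference of 3.74 ± 0.13, or 13.4-fold. Sc5d read 8.00, 8.22, 8.14, 7.91 and 7.84 against 11.66, 11.28 and 11.81, a difference of 3.56 ± 0.12, or 11.8-fold. Insig1 read 8.12, 7.99, 8.07, 8.15 and 8.02 against 10.96, 10.66 and 11.25, a difference of 2.89 ± 0.17. For each of the 3 the lowest Leydig IP was more than 2 log2 units above the highest Sertoli IP. Cyp51 differed by 2.61 ± 0.15, Hsd17b7 by 2.36 ± 0.20, Fdps by 2.34 ± 0.10, Sqle by 2.19 ± 0.13, Lss by 2.11 ± 0.22, Dhcr7 by 2.06 ± 0.17 and Msmo1 by 2.01 ± 0.12. The smallest called differences were Mvd at 0.71 ± 0.22, Hmgcs1 at 0.88 ± 0.13, Fdft1 at 0.90 ± 0.08 and Srebf1 at 0.93 ± 0.08. The Mvd call was lost without Leydig saline IP replicate 3 (0.55, adjusted p = 0.0815). Srebf2 was 1.85 ± 0.11 higher, Stard4 1.79 ± 0.32, Idi1 1.86 ± 0.12, Nsdhl 1.63 ± 0.12, Scap 1.47 ± 0.08, Pmvk 1.21 ± 0.16 and Mvk 1.13 ± 0.15.

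The order of Insig2 was reversed. It read 10.11, 10.03, 10.04, 10.16 and 10.14 in the Sertoli IPs and 9.46, 9.38 and 9.71 in the Leydig IPs, a difference of -0.58 ± 0.07 with an adjusted p of 1.17e-06, just short of 1.5-fold. So every Sertoli IP held more Insig2 than every Leydig IP, while every Leydig IP held more Insig1. Over all treatments, the 9 Leydig IPs lay entirely above the 15 Sertoli IPs for 21 of the 25 transcripts, where 12.1% of probe sets did so. They lay entirely below for 1, Insig2, where 17.0% of probe sets did so. Ebp, Ggps1 and Acss2 overlapped.

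**Figure D3:**
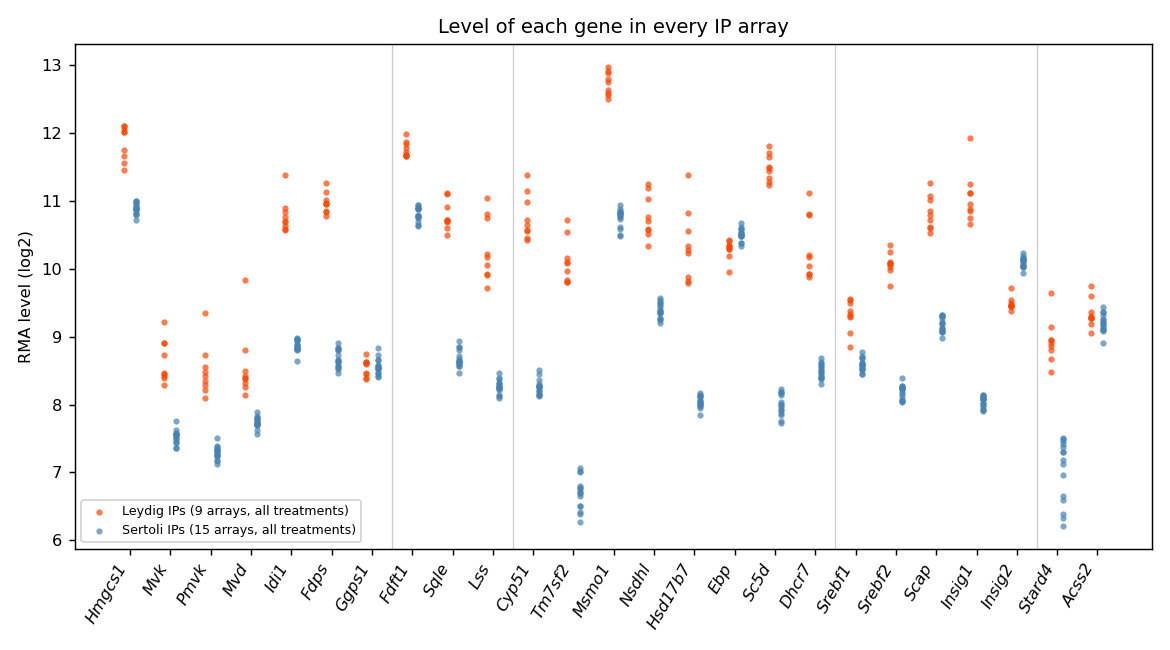
Log2 level of each transcript (vertical axis) in every IP array of the Leydig line (9 arrays) and the Sertoli line (15 arrays), all treatments together, with 1 point per array. The clouds are apart for 22 transcripts and overlap for Ebp, Ggps1 and Acss2; heights of different genes are not comparable.

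Hormone withdrawal and LH were then compared among the Leydig IPs, with 2 arrays in each treated group. limma called 0 of the 25 transcripts after acyline against saline (0.143% of probe sets were called), 0 at 1 h after LH against acyline (0.00818%) and 0 at 4 h after LH against acyline (0.613%). It also called 0 between 4 h and 1 h (0.200%) and 0 between 4 h and saline (3.32%). With an unadjusted p under 0.05 and the same 1.5-fold limit, 3 transcripts passed after acyline (Nsdhl, Dhcr7 and Tm7sf2), 1 at 4 h (Hsd17b7), 1 between 4 h and 1 h (Dhcr7) and 0 in the others. The acyline arrays serve as the control of both LH times and the saline arrays enter the acyline and the 4 h comparison, so these comparisons share arrays. The standard errors ran from 0.10 to 0.42, and a change of 1.5-fold in the more variable genes lay within their intervals.

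Nsdhl read 11.20, 10.76 and 11.25 in the saline IPs, 10.51 and 10.34 after acyline, 10.71 and 10.59 at 1 h and 11.03 and 10.57 at 4 h after LH. The acyline arrays lay below all saline arrays, with a difference of -0.64 ± 0.18 (adjusted p = 0.193). Tm7sf2 read 10.72, 10.16 and 10.55 in saline, 9.97 and 9.81 after acyline, 10.09 and 9.83 at 1 h and 10.11 and 9.81 at 4 h. Its acyline difference was -0.59 ± 0.18 (adjusted p = 0.214), and the levels at 4 h were still near those of acyline. Dhcr7 read 10.80, 10.21 and 10.81 in saline, 9.92 and 10.04 after acyline, 9.87 and 9.93 at 1 h and 11.13 and 10.18 at 4 h, and differed after acyline by -0.62 ± 0.27 (adjusted p = 0.364). Over the 25 transcripts, 21 had a value below 0 after acyline, with a median of -0.14, against 0.01 over all probe sets. The share of all probe sets below 0 was not counted, and transcripts of the same arrays are not independent. Cell markers also shifted in this comparison without a call. The mean level of the 5 Leydig markers was 12.6 in each saline IP and 12.1 and 12.4 after acyline, and their differences had a median of -0.34 with 1 of the 5, Hsd3b1, above 0. All 6 spermatid markers lay above 0, by 0.16 to 0.39, and all 4 peritubular myoid markers, by 0.13 to 0.26. The 5 Sertoli markers ran from -1.08 to 0.19, with a median of -0.21. The part of these marker shifts in the values of the 25 transcripts was not tested.

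Scap lay on the other side of its saline level. It read 10.62, 10.79 and 10.53 in saline, 11.07 and 11.26 after acyline, 11.01 and 10.86 at 1 h and 10.72 and 10.60 at 4 h. Both acyline arrays were above all others. The difference was 0.52 ± 0.11 after acyline (adjusted p = 0.135) and -0.51 ± 0.13 from acyline to 4 h of LH (adjusted p = 0.101), both under 1.5-fold. Srebf1 read 9.54, 9.56 and 9.38 in saline, 9.29 and 9.33 after acyline, 9.50 and 9.30 at 1 h and 9.05 and 8.84 at 4 h. The 4 h arrays were the lowest, -0.55 ± 0.11 from saline with an adjusted p of 0.0309, under 1.5-fold, and after quantile normalization the change of -0.61 passed that limit. The difference from acyline was -0.36 ± 0.12 (adjusted p = 0.18).

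At 4 h after LH the replicate arrays disagreed over the pathway itself. LH 4 h replicate 1 was above replicate 2 for 24 of the 25 transcripts, with a median gap of 0.60 on the log2 scale. The gap was at least 0.5 for 13 of them, where 4.25% of all probe sets had such a gap and the median over all was 0.01. Mvd read 9.84 and 8.25, a gap of 1.58. Insig1 read 11.92 and 10.75, and Stard4 9.65 and 8.49. Lss read 11.04 and 9.90, and Hsd17b7 11.39 and 10.28. The gaps of these 4 genes lay between 1.11 and 1.17, so replicate 1 held more than 2-fold the level of replicate 2. Pmvk, Dhcr7, Cyp51, Idi1, Mvk, Hmgcs1, Srebf2 and Sqle followed with gaps from 1.00 down to 0.60. Fdps (0.06), Insig2 (0.02), Acss2 (0.10), Scap (0.12) and Ggps1 (-0.11) were nearly level.

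The value of Hsd17b7 at 4 h therefore rests on unequal arrays. It read 9.88 and 9.80 after acyline and 10.34 and 10.23 at 1 h, and its 4 h difference was 1.00 ± 0.38 (adjusted p = 0.223). Both 4 h arrays lay above both acyline arrays. Mvd differed by 0.70 ± 0.42 with both arrays (adjusted p = 0.419), by 1.49 without replicate 2 and by -0.095 without replicate 1. With 1 LH 4 h array left, the error comes from the other groups, and that array is assumed to vary as they do. Insig1 differed by 0.47 ± 0.33 with both arrays and by -0.11 without replicate 1. Relative to the mean of the acyline arrays, replicate 1 was higher for 21 of the 25 transcripts with a median of 0.31, and replicate 2 for 7 with a median of -0.09. These counts were not made over all probe sets.

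**Figure D4:**
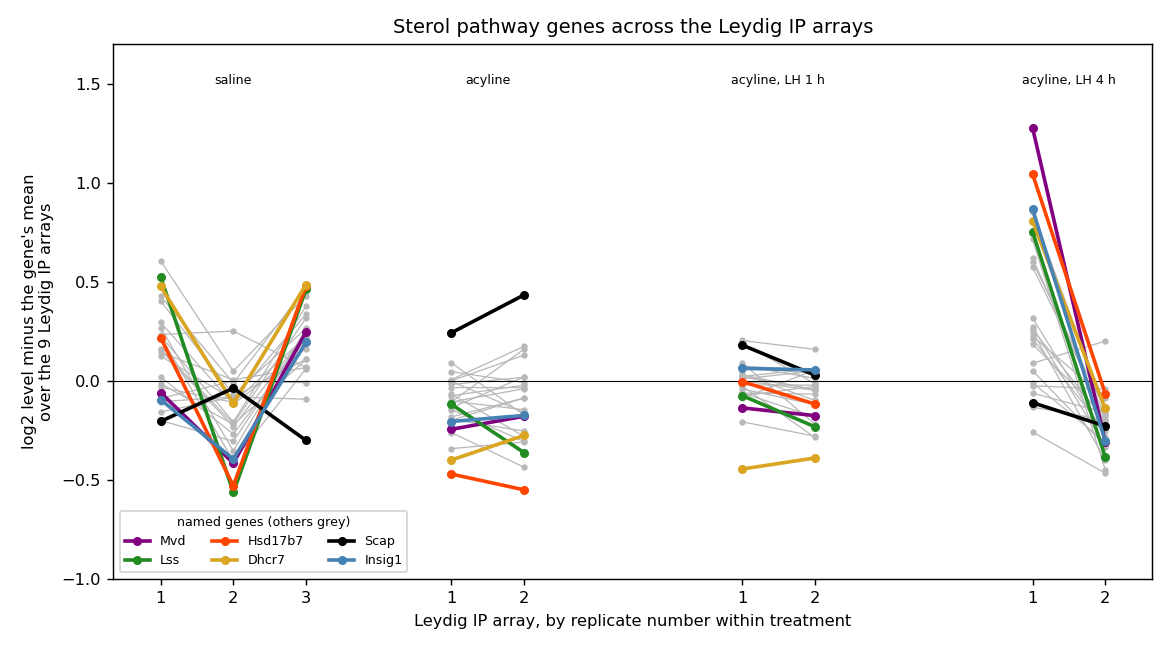
Log2 level of each transcript minus its own mean over the 9 Leydig IP arrays (vertical axis), by treatment and replicate number (horizontal axis); 6 genes are coloured and the other 19 are grey. At LH 4 h replicate 1 lies above replicate 2 for 24 of the 25 transcripts, and saline replicate 2 lies below replicate 3 for 21. The acyline and LH 1 h pairs have median gaps of -0.03 and 0.06, with LH 1 h replicate 1 above replicate 2 for 20.

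The saline IPs also differed among themselves. Saline replicate 3 was above replicate 2 for 21 of the 25 transcripts with a median gap of 0.47, and by at least 0.5 for 9, where 2.27% of probe sets had such a gap. Replicate 1 was above replicate 2 for 20 with a median of 0.36, and by at least 0.5 for 6, where 2.17% did. Replicates 1 and 3 differed by less than 0.5 for every one of the 25. Over all probe sets 1.62% were at least 0.5 higher in replicate 1 and 2.32% at least 0.5 lower. The inputs of the line showed part of this order. Replicate 2 was the lowest IP for 20 transcripts, the lowest input for 13, and both for 11, counts not made over all probe sets. Input replicate 3 was above input replicate 2 for 20 of the 25, where 44.4% of all probe sets were. The median gap was 0.09 with 0 gaps of 0.5 or more, against a median of -0.02 over all probe sets. The widest input gaps were 0.46 for Dhcr7, 0.43 for Msmo1, 0.36 for Sc5d and 0.35 for Hsd17b7. With the same-numbered input subtracted, the gap between IP replicates 3 and 2 had a median of 0.30 and reached 0.5 for 7 transcripts, with 0.88 for Lss, 0.66 for Hsd17b7 and 0.65 for Mvd, while it fell to 0.14 for Dhcr7 and 0.04 for Msmo1. The acyline pair and the LH 1 h pair had 0 gaps of 0.5 or more in either direction. Over all probe sets 3.12% and 2.05% were higher in replicate 1 by that much, and 1.68% and 6.5% lower. With 25 transcripts these counts of 0 do not stand clear of those shares. Replicate 1 of the LH 1 h pair was above replicate 2 for 20 of the 25, against 53.7% of all probe sets. Its median gap was 0.06. For 8 transcripts (Cyp51, Dhcr7, Hmgcs1, Hsd17b7, Insig1, Lss, Mvd and Mvk) the gap reached 0.5 both between the LH 4 h arrays and between saline replicates 3 and 2. Across the 25 transcripts the gaps of these separate array pairs correlated with r = 0.69 (Spearman's rho = 0.75), and across all 24461 probe sets with r = -0.01. Transcripts of one array share its RNA and are not independent, so this is a description.

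Other lists were read on the same arrays. Between the LH 4 h arrays all 5 Leydig markers were higher in replicate 1, by 0.001 to 0.48 with a median of 0.28. All 12 germ cell markers were lower in it, with medians of -0.41 for spermatids and -0.40 for spermatogonia and spermatocytes. The latter list holds the marker that was enriched in the Leydig IPs, so it does not stand for germ cells alone. Of the 5 Sertoli markers, 4 were lower in replicate 1, with a median of -0.19 and a range of -1.27 to 0.39. Between saline replicates 3 and 2 the median was -0.05 for the Leydig markers, 0.004 for spermatids and 0.10 for spermatogonia and spermatocytes. For the Sertoli markers the median was 0.17, with a range of -0.40 to 0.65. The part of cell content in these gaps was not tested. Of the 12 fatty acid genes under SREBP control, 11 were higher in LH 4 h replicate 1, with a median of 0.38, and of the other genes of sterol synthesis tested, 5 of 5. Over all probe sets 51.3% were higher in that array.

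**Figure D5:**
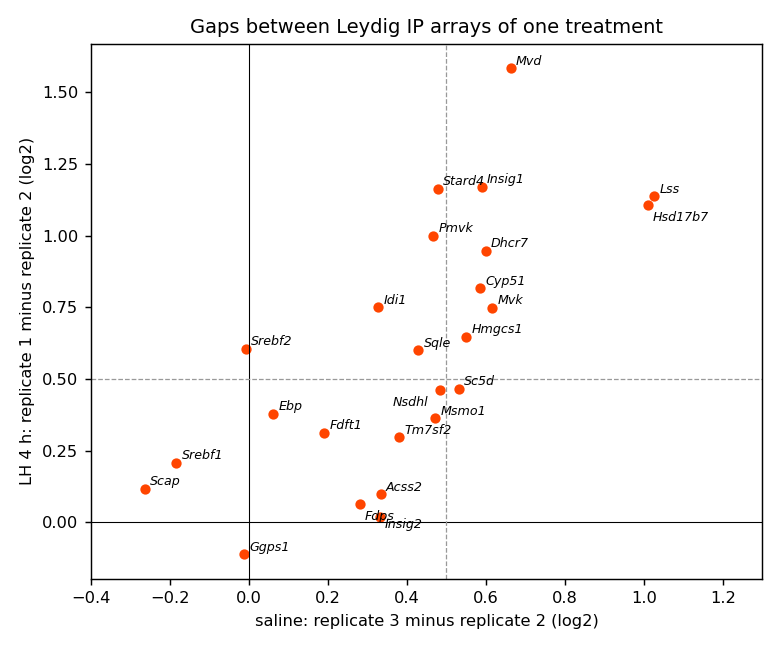
Gap between the LH 4 h arrays (replicate 1 minus 2, vertical axis, log2) against the gap between saline arrays (replicate 3 minus 2, horizontal axis, log2) for the 25 transcripts in Leydig IPs; dashed lines mark 0.5. The 8 transcripts past both lines include Lss and Hsd17b7 at the right and Mvd at the top.

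In the Sertoli IPs the treatments made no call either. limma called 0 of the 25 transcripts after acyline (0.00406% of probe sets were called), 0 after cetrorelix (0.0122%), 0 after testosterone (0.00406%), 0 at 1 h after FSH (0%) and 0 at 4 h after FSH (0.0203%). With an unadjusted p under 0.05, 0 transcripts passed 1.5-fold in any of the 5, and those under 0.05 at any size were Ebp after acyline, Fdft1 after cetrorelix, Lss after testosterone and Tm7sf2 at 1 h after FSH. Tm7sf2 read 6.50 and 6.42 after acyline and 7.02 and 7.06 at 1 h after FSH, a difference of 0.58 ± 0.15 (adjusted p = 0.251), and 6.50 and 6.27 at 4 h. The range from the lowest to the highest array was wider over the 9 Leydig IPs than over the 15 Sertoli IPs for 23 of the 25 transcripts, with medians of 0.73 and 0.37, although fewer arrays entered. Mvd ranged over 1.69 in the Leydig and 0.32 in the Sertoli IPs, Hsd17b7 over 1.59 and 0.32, and Insig1 over 1.26 and 0.24. The ranges were close for Insig2 (0.33 and 0.30), Fdft1 (0.33 and 0.31), Msmo1 (0.47 and 0.46) and Fdps (0.49 and 0.45), and wider in the Sertoli IPs for Ggps1 (0.37 and 0.42) and Stard4 (1.16 and 1.29). The difference in spread was not tested. Ranges were not counted over all probe sets, so a wider range in the Leydig IPs is not shown to be particular to these transcripts. Stard4, from 6.21 to 7.51, and Tm7sf2, from 6.27 to 7.06, varied most among the Sertoli IPs.

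The effect of acyline was also compared between the cell types, although it was given for 4 days in the Cyp17iCre: RiboTag mice and for 3 days in the AMH-Cre: RiboTag mice, so length of treatment and cell type cannot be told apart. limma called 0 of the 25 differences (0.0669% of probe sets), and 1 passed with an unadjusted p under 0.05 and 1.5-fold, Nsdhl at -0.65 ± 0.20 (adjusted p = 0.293). Scap differed by 0.50 ± 0.14 (adjusted p = 0.22). In the Sertoli IPs Nsdhl read 9.46, 9.57, 9.51, 9.20 and 9.44 after saline and 9.39 and 9.49 after acyline, and Scap read 9.30, 9.09, 9.09, 9.28 and 9.13 and 9.20 and 9.18, so in neither were the groups apart.

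Other lists around the pathway were counted on the same arrays, where 11.0% of all probe sets were called enriched in the Leydig line and 12.4% in the Sertoli line. Of 12 fatty acid synthesis genes under SREBP control, 10 were enriched in Leydig IPs and 7 in Sertoli IPs, with 1 depleted there. Scd1, the stearoyl-CoA desaturase, was at 3.57 ± 0.10 in the Leydig line and -1.40 ± 0.18 in the Sertoli line, and was 5.27 ± 0.17 higher in Leydig than Sertoli IPs. Elovl6, a fatty acid elongase, was 2.52 ± 0.21 higher, Thrsp, a regulator of lipogenesis, 1.74 ± 0.10 and Fads1, a fatty acid desaturase, 1.42 ± 0.09. The genes called lower, named after their values were seen, were Fasn, the fatty acid synthase, and Acaca, the acetyl-CoA carboxylase. Fasn was -0.91 ± 0.10 and Acaca -0.99 ± 0.07 in Leydig relative to Sertoli IPs. Of the 12, 7 were higher in Leydig IPs and 2 were lower, where 12.4% and 13.3% of probe sets were. Of the other genes of sterol synthesis, Acat1, Aacs and Cyb5r3 were higher in Leydig IPs by 1.26 ± 0.05, 1.49 ± 0.19 and 1.42 ± 0.10, and Lbr and Tmem97 were depleted in both lines. Of 7 genes for SREBP processing and sterol-regulated degradation, 0 were enriched in the Leydig line and 1 in the Sertoli line, Mbtps1, the Golgi protease that cuts SREBP, at 1.66 ± 0.06. Mbtps1 and Erlin2 were lower in Leydig than Sertoli IPs, by -0.86 ± 0.06 and -0.79 ± 0.07. Of 12 genes of the isoprenoid branch, which uses farnesyl and geranylgeranyl units for other products, 2 were enriched in the Leydig line and 4 in the Sertoli line, and 0 were higher and 2 lower in Leydig than Sertoli IPs. With 7 and 12 genes, the counts of these last lists do not stand clear of the share over all probe sets.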

How the data were processed

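Affymetrix Mouse Gene 1.0 ST arrays of 32 testis samples, 1 array per sample, were used. The authors amplified and labelled about 100 ng of RNA per sample and normalized the arrays with RMA; the deposited values are log2 levels of 35556 probe sets, with the RMA version not given in the sources used here. Samples were grouped by their labels. The source label of 4 cetrorelix arrays says input, whereas their titles and sample types say IP; they were treated as IPs. Among the probe sets, 21789 carry 1 gene symbol, 1621 several, and 12146 have no symbol or are unlisted in the platform annotation. Probe sets entered a fit if any array in it had a linear signal above 50. Contrasts were fitted with limma 3.58.1 in R 4.3.3 on all tested probe sets, with Benjamini-Hochberg adjustment over all of them: enrichment within each line, its difference over both, and treatments among the IPs of a line. Calls required both an adjusted p below 0.05 and a 2-fold (against input) or 1.5-fold (between IPs) change. The residual degrees of freedom were 8 (Sertoli enrichment), 4 (Leydig enrichment), 12 (their difference), 9 and 5 (Sertoli and Leydig treatments) and 14 (IPs of both lines). The fit was tested on simulated data. The labels do not say that replicates are separate animals; the study counts the saline groups in mice and the arrays of the Sertoli hormone experiments in animals, and each replicate was taken as 1 animal, which the sources used here do not state for the acyline and LH arrays of the Leydig line. The study took each IP with its own input, without saying that equal replicate numbers mark the pairs; deviations of same-numbered inputs and IPs correlated between -0.03 and 0.16 over all probe sets, and the fit with the number as a block was an alternative. The members and lists were chosen with earlier results of these data known. Genes were named by this rule: every member, those called with the value of every sample, and from other lists up to 4 called genes of largest absolute change, to which Fasn and Acaca were added. RMA compresses low levels and its values give no read depth; the number of arrays limits the precision.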

Additional observations from a re-analysis of the deposited data

Results flagged for a closer look

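Of 50 groups of 5 arrays, each for 1 gene, 2 held a value that stood apart from the rest. These were Cyp51 in Sertoli line input replicate 4, at 9.24 where the next was 9.07, and Stard4 in Sertoli line input replicate 5, at 7.26 where the next was 7.46. Chance alone marks about 1 in 20 such groups, and these were 2 in 50.

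The enrichment of 18 transcripts differed between the lines by the test of the difference itself, always larger in the Leydig line. On the log2 scale the difference was 3.95 for Tm7sf2, 3.54 for Sc5d, 2.98 for Insig1, 2.56 for Cyp51, 2.32 for both Hsd17b7 and Fdps, 2.21 for Sqle, 2.20 for Stard4 and 2.10 for Dhcr7. It was 2.04 for Lss, 2.02 for Idi1, 1.95 for Srebf2, 1.83 for Msmo1, 1.60 for Nsdhl, 1.57 for Scap, 1.34 for Pmvk, 1.19 for Mvk and 1.04 for Srebf1. The standard errors lay between 0.10 and 0.29. Idi1, Fdps, Sqle, Cyp51, Tm7sf2, Sc5d and Insig1 were below input in the Sertoli line and above it in the Leydig line.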

How the results depend on the processing

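The counts of called transcripts kept within 1.5 times their value for both enrichments, their difference and the comparison of saline IPs under every alternative run (no filter, median centring, quantile normalization, ordinary contrasts, unadjusted p, Sertoli saline replicates 1 to 3, the other probe set of a gene, and each array left out); the Sertoli count of 7 ranged from 6 to 10. Of 65 called values of single transcripts, 61 kept their call in all alternatives, 4 lost it in 13 of 1097 checks (Ggps1, Mvk, Srebf1 and Mvd), and none changed sign. Counts of 0 rose to 3 after acyline, 1 for LH 4 h, 1 for 4 h against 1 h and 1 for the acyline difference with an unadjusted p, and to 1 for 4 h against saline with quantile normalization. Leaving out 1 array gave 0 to 1 for LH 4 h, 0 to 1 for 4 h against 1 h and 0 to 2 for 4 h against saline, the higher ones without LH 4 h replicate 2, where the lone array is assumed to vary like the other groups. The LH 4 h values of Mvd and Insig1 changed sign to -0.095 and -0.11 without replicate 1 and were 1.49 and 1.06 without replicate 2; causes were not tested. With the replicate block, which pairs each IP with the same-numbered input, the same 7, 19 and 18 transcripts were called for Sertoli enrichment, Leydig enrichment and their difference. Between IPs of different mice the number alone is shared and same-numbered arrays correlated between -0.19 and 0.13; with the block the saline IPs gave 21 (Mvd lost its call and Insig2 gained one) and every treatment 0. Crossing the LH 4 h or the testosterone pair, chosen after seeing the data, also gave 0. With 2 arrays per treated group, a change within the intervals cannot be called absent.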
